A study of Homo sapiens with 9 samples.

Results

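The collagen genes of SKOV3 cells were described across 3 groups of libraries. They were taken as the protein-coding genes whose symbol has the form COL, a number, A and a number, which found 44 of the 19951 protein-coding genes and 58735 genes in all that the count table lists. SKOV3 is an established ovarian cancer cell line, and the study describes stable lines in which the endogenous kinase CDK9 was depleted and a WT or mutant copy expressed in its place. Total RNA was sequenced from cells expressing WT CDK9 (3 libraries), from cells expressing WT CDK9 and given an ALK inhibitor for 24 h (3 libraries) and from cells expressing Tyr19Phe CDK9, in which tyrosine 19 cannot be phosphorylated (3 libraries). All were grown with fetal bovine serum, in DMEM by the labels and in DMEM/F12 by the study's methods for SKOV3. CDK9 is the kinase of P-TEFb, which releases paused RNA polymerase II, and the comparisons ask which transcripts differ when phosphorylation of tyrosine 19 is blocked at the kinase ALK or at the site itself. The inhibitor and its dose for these libraries, and whether each line was derived from 1 clone, are not given in the sources used here. WT and Tyr19Phe CDK9 cells are separate stable lines. In comparisons with Tyr19Phe CDK9 cells, the mutation and other differences between the lines therefore cannot be told apart. Nothing states that the libraries came from separate cultures, so p-values measure only the spread between these libraries, which may be technical. That spread was estimated for each gene with information from all tested genes. Because RNA was measured in bulk, fewer cells expressing a gene and less RNA per cell cannot be told apart.

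Collagens are proteins of the extracellular matrix that assemble from 3 chains into a triple helix, and each gene encodes 1 chain. Fibrillar collagens (types I, II, III, V, XI, XXIV and XXVII) form the cables of connective tissue, network-forming collagens such as type IV build the basement membrane under epithelia, and beaded filament, anchoring fibril and fibril-associated collagens link these structures to each other and to cells. Transmembrane collagens sit in the plasma membrane, and multiplexins such as type XVIII are basement membrane proteoglycans. The type IV genes lie in pairs that are read in opposite directions from a shared stretch of DNA.

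The 4 stretches of DNA printed here are shown because their genes were among the 6 highest in level and carried the calls with the smallest standard errors, or, for type IV, share 1 stretch. They were read from RefSeq's promoter table and the GRCh38 genome (coordinates on GRCh38), 5′ to 3′ on the strand of the gene, and capitals mark each GC box (GGGCGG on either strand), the motif of SP family transcription factors. For COL5A1 (chr9:134641553-134641802, plus strand), COL12A1 (chr6:75206054-75206303, minus strand) and COL7A1 (chr3:48595330-48595579, minus strand) the 250 bases before the start are given, and for COL4A1 and COL4A2 the 126 bases between their starts (chr13:110307158-110307283, plus strand, on which COL4A2 lies).
COL5A1: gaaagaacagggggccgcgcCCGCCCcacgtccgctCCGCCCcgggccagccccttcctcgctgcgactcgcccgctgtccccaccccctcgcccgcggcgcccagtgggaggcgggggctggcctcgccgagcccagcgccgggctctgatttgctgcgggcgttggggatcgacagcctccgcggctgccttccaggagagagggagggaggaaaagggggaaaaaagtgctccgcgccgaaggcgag
COL12A1: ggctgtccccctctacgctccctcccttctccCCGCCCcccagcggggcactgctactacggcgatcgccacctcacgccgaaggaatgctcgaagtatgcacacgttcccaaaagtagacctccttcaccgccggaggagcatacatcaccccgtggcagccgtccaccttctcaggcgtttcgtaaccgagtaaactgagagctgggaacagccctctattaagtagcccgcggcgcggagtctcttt
COL7A1: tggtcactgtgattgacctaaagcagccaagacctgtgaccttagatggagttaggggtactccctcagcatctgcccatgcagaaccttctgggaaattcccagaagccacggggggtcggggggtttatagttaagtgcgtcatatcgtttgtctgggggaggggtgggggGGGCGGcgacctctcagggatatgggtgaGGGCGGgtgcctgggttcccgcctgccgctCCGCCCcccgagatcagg
COL4A1-COL4A2: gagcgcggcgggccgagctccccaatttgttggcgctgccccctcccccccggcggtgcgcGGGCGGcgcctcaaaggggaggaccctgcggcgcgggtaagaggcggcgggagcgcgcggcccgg
The COL4A1-COL4A2 stretch had a GC content of 80.2%, with 20 CpG dinucleotides, 1 GC box and 1 CCAAT box, and COL5A1 had 74.0% with 29 CpG and 2 GC boxes. COL12A1 (61.2%, 21 CpG, 1 GC box) and COL7A1 (60.8%, 11 CpG, 3 GC boxes and 1 TATAAA) were lower in GC content. Of the 23 tested collagen genes, 18 had entries in the promoter table, with 23 windows between them, and 5 (COL1A1, COL1A2, COL5A2, COL8A1 and COL6A1) had none. A GC box stood in 17 of the 23 collagen windows and in 42.6% of all 35116 windows of 250 upstream bases. Counted by gene, it stood in 14 of the 18 collagen genes, and the COL4A1 and COL4A2 windows share part of their bases. CCAAT, searched on both strands, stood in 5 collagen windows and in 32.0% of all windows, TATAAA in 4 and 10.7%, and the AP-1 motif TGANTCA in 0 and 6.60%. These are letter matches only. Besides COL4A1 and COL4A2 (starts 127 bases apart), COL4A4 and COL4A3 (419 bases) and COL4A6 and COL4A5 start head to head.

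Of the 44 collagen genes, 23 passed the filter on low counts and 21 did not. The highest count of any of these 21 in any library was 21, 11 of them had no count in any WT CDK9 library, and 4 (COL4A6, COL6A5, COL15A1 and COL22A1) had none anywhere, which allows up to 3 counts, or 0.102 to 0.165 CPM (read counts scaled by library total and TMM factor) by library, counting error only. The 21 include COL3A1, COL2A1, COL5A3, COL11A1 and COL24A1 of the fibrillar family. The others are COL10A1, COL6A6, COL9A1, COL9A3, COL13A1, COL14A1, COL19A1, COL20A1, COL21A1, COL25A1, COL26A1 and COL28A1. COL3A1, a fibroblast product that usually accompanies type I, had 4 counts in 1 Tyr19Phe CDK9 library and none in the other 8. The libraries held 18939449 to 19731228 counts each for WT CDK9, 18169050 to 20974903 with the ALK inhibitor and 26485891 to 29320184 for Tyr19Phe CDK9, the deepest group. CDK9 itself was at 48.6 ± 1.03, 45.6 ± 1.77 and 55.0 ± 3.94 CPM (mean ± SD, n = 3) in the 3 groups, where reads of the endogenous and re-expressed gene were not separated. ALK, the target of the inhibitor, had 0 to 5 counts in each of the 9 libraries and did not pass the filter.

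Taken as a sum, SKOV3 markers were abundant, and markers of matrix-producing cells were low. The 9 epithelial and ovarian cancer markers summed to between 5177 and 6032 CPM across all 9 libraries. Most of this came from KRT7, KRT8 and ERBB2, at means of 1620.3, 1306.7 and 1799.7 CPM in WT CDK9 cells. The gene WT1, on the same list, averaged only 1.70, 1.11 and 1.04 CPM in WT CDK9, inhibitor and Tyr19Phe CDK9 libraries. That was below ACTA2 of the fibroblast list, at 4.94, 4.89 and 2.99 CPM in the same order. Of 7 fibroblast markers only THY1 and ACTA2 passed the filter, their list summed to 4.54 to 8.92 CPM in WT CDK9 cells, 5.13 to 7.20 CPM after the inhibitor and 4.0 to 5.01 CPM in Tyr19Phe CDK9 cells, and DCN and LUM, which define fibroblasts, had means of at most 0.0852 CPM. The 4 endothelial markers summed to 0.975 to 2.62 CPM in WT CDK9 cells and 3.29 to 4.34 CPM in Tyr19Phe CDK9 cells, and the 4 leukocyte markers to at most 0.465 CPM in any library. Several of the 9 epithelial and ovarian cancer markers moved with the groups, in both directions. In Tyr19Phe CDK9 cells the keratins KRT8 (log2 fold change 0.38, adjusted p = 5.11e-10) and KRT18 (0.39, 1.01e-06) were higher. KRT19 (-1.24, 3.86e-17), MSLN, mesothelin (-1.67, 4.91e-14), EPCAM (-0.82, 1.76e-05) and ERBB2 (-0.29, 5.4e-08) were lower there, and KRT7, PAX8 and WT1 were not called. After the inhibitor ERBB2 (0.54, 2.96e-13) and KRT19 (0.21, 0.0167) were higher and KRT7 (-0.35, 1.15e-08) was lower, and the other 6 were not called. Their part in the collagen results was not tested.

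Collagen reads made up 0.533% ± 0.0112 of all counts in WT CDK9 cells, 0.515% ± 0.0047 after the ALK inhibitor and 0.556% ± 0.0221 in Tyr19Phe CDK9 cells (SD, n = 3). Levels per kilobase of gene length (CPM/kb, the mean over the 9 libraries) ran from 0.0943 to 94.4, a 1000-fold range. COL18A1, whose protein also yields endostatin, was highest at 98.4 CPM/kb in WT CDK9 cells, followed by COL4A1 at 84.4, COL5A1 at 67.0, COL4A2 at 61.2, COL12A1 at 60.9 and COL7A1 at 23.3 CPM/kb. These 6 genes held 88.4% to 92.2% of the summed collagen level per kilobase in the 9 libraries. Of the other 17 tested genes, 9 lay between 1 and 20 CPM/kb and 8 under 1 CPM/kb. The order differed in Tyr19Phe CDK9 cells, where COL5A1 rose to 108 CPM/kb, above COL18A1 at 90.9, and COL12A1 was at 45.8 CPM/kb. COL18A1 shares 18.5% of its exonic bases with SLC19A1 on the other strand. If the counting did not use strand, the level of COL18A1 and the multiplexin share below may include reads of SLC19A1.

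**Figure D1:**
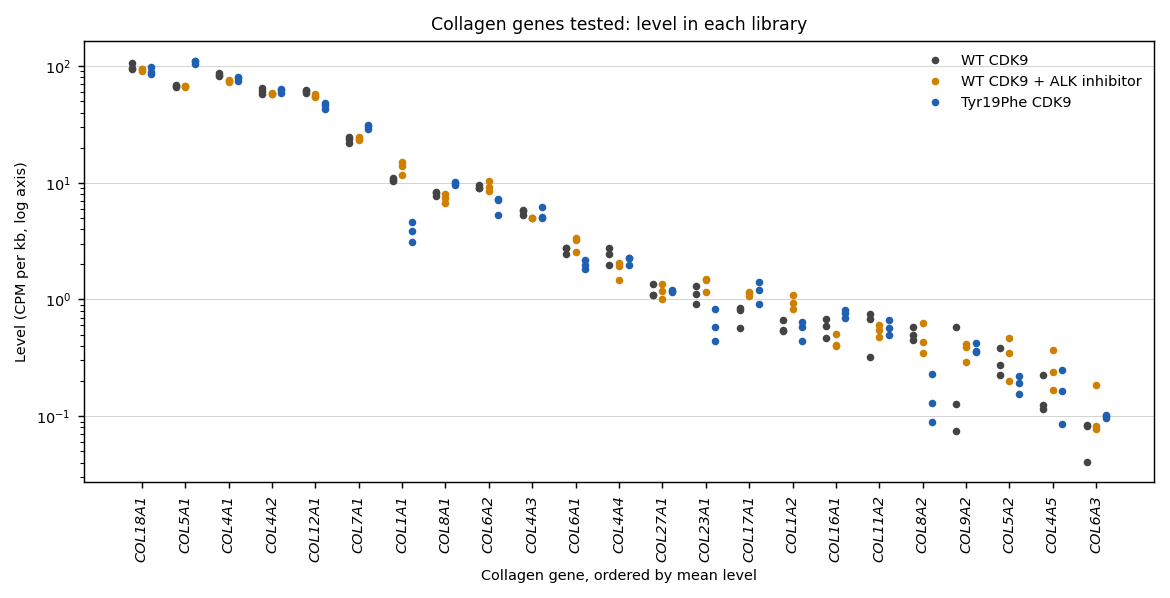
Levels of the tested collagen genes in CPM per kilobase on a log axis, 1 point per library, coloured by group, with genes ordered by mean level. COL18A1, COL4A1, COL5A1, COL4A2, COL12A1 and COL7A1 stand over 20 CPM/kb, while 8 genes lie under 1 CPM/kb.

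By family, network-forming collagens held 36.9% ± 0.483 of the collagen level per kilobase in WT CDK9 cells, 35.0% ± 0.760 after the inhibitor and 35.0% ± 0.369 in Tyr19Phe CDK9 cells (SD, n = 3). The fibrillar share was 18.2% ± 0.226, 19.9% ± 0.417 and 25.4% ± 0.416 in the same order, so that every Tyr19Phe CDK9 library lay above every library of the other groups. Most of this share was COL5A1, at 67.0 CPM/kb in WT CDK9 cells and 108 CPM/kb in Tyr19Phe CDK9 cells. COL1A1, of the same family, went from 10.6 to 3.86 CPM/kb, and the median log2 fold change of the 6 tested fibrillar genes was -0.04. Fibril-associated collagens, mostly COL12A1, held 14.0% ± 0.696, 13.5% ± 0.323 and 10.4% ± 0.378, and the multiplexin share, all from COL18A1, was 22.3% ± 0.895, 22.3% ± 0.238 and 20.2% ± 0.762. The beaded filament share, from type VI, was 2.71% ± 0.114 in WT CDK9 cells and 1.91% ± 0.142 in Tyr19Phe CDK9 cells.

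With the ALK inhibitor, few collagen genes differed from WT CDK9 cells. Both type I chains were higher and COL4A1 was lower, so 2 of the 23 tested genes were called higher and 1 lower at an adjusted p under 0.05. Over all 16350 tested genes, 1.82% were called higher and 2.73% lower, against 8.70% and 4.35% of the collagen genes, which are counts of 2 and 1. The collagen genes were chosen with earlier results of these data known. Their shares of called genes, here and in the other comparisons, are therefore a description only. The median log2 fold change of the 23 genes was 0.00, as was that of all tested genes, and the median size of change was 0.18 against 0.13 (log2).

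COL1A1 (ENSG00000108821, chr17:50183289-50201632), the alpha-1 chain of type I collagen, stood at 103, 103 and 107 CPM in the WT CDK9 libraries and at 115, 149 and 136 CPM after the inhibitor. All 3 treated libraries lay above all 3 WT CDK9 libraries, with a log2 fold change of 0.35 (SE 0.09, adjusted p = 0.0111). COL1A2 (ENSG00000164692, chr7:94394561-94431232), the partner alpha-2 chain, stood at 6.05, 7.39 and 6.04 CPM in the WT CDK9 libraries and 9.16, 12.1 and 10.5 CPM after the inhibitor. These groups did not overlap either (log2 fold change 0.70, SE 0.19, adjusted p = 0.021). Both calls turned on single libraries. COL1A1 lost its call without WT replicate 1, inhibitor replicate 2 or inhibitor replicate 3 (adjusted p between 0.0653 and 0.147), and COL1A2 without WT replicate 1, WT replicate 3, inhibitor replicate 2 or inhibitor replicate 3 (adjusted p between 0.0668 and 0.128). DESeq2 called COL1A2 but not COL1A1.

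COL4A1 (ENSG00000187498, chr13:110148963-110307233), a basement membrane chain, was at 1219.8, 1279.6 and 1231 CPM in the WT CDK9 libraries and at 1123, 1088 and 1082 CPM after the inhibitor. The treated libraries all lay lower, with a log2 fold change of -0.18 (SE 0.03, adjusted p = 5.57e-04), and the call held in all 15 alternatives and library removals tried (adjusted p at most 0.00874). Its partner COL4A2 (ENSG00000134871, chr13:110305812-110513209) was at 1178, 1252 and 1114 CPM in the WT CDK9 libraries and at 1141, 1117 and 1102 CPM after the inhibitor. By RefSeq's starts COL4A2 begins 127 bases away on the other strand, while the spans printed here, from the deposited positions, overlap. COL4A2 overlapped between the groups and missed the threshold (log2 fold change -0.08, SE 0.04, adjusted p = 0.328). COL4A3 and COL4A4, the chains of the basement membrane of kidney and lung, also missed it, with log2 fold changes of -0.17 (adjusted p = 0.337) and -0.39 (adjusted p = 0.085).

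Of the 6 highest genes, COL5A1 differed least after the inhibitor, at 751, 765 and 734 CPM in the WT CDK9 libraries and 753, 759 and 741 CPM (log2 fold change 0.00, SE 0.03, adjusted p = 0.99). COL12A1, at 683, 723 and 697 CPM against 758, 737 and 785 CPM, was lower in all 3 treated libraries but not called (log2 fold change -0.12, SE 0.04, adjusted p = 0.108). COL18A1 (log2 fold change -0.07, SE 0.04, adjusted p = 0.5) and COL7A1 (log2 fold change 0.03, SE 0.05, adjusted p = 0.829) were not called. COL17A1, a transmembrane collagen of hemidesmosomes, was at 4.0, 5.96 and 5.77 CPM in the WT CDK9 libraries and 7.97, 8.24 and 7.60 CPM. Its treated libraries lay above the others but the test missed the threshold (log2 fold change 0.60, SE 0.20, adjusted p = 0.0913).

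**Figure D2:**
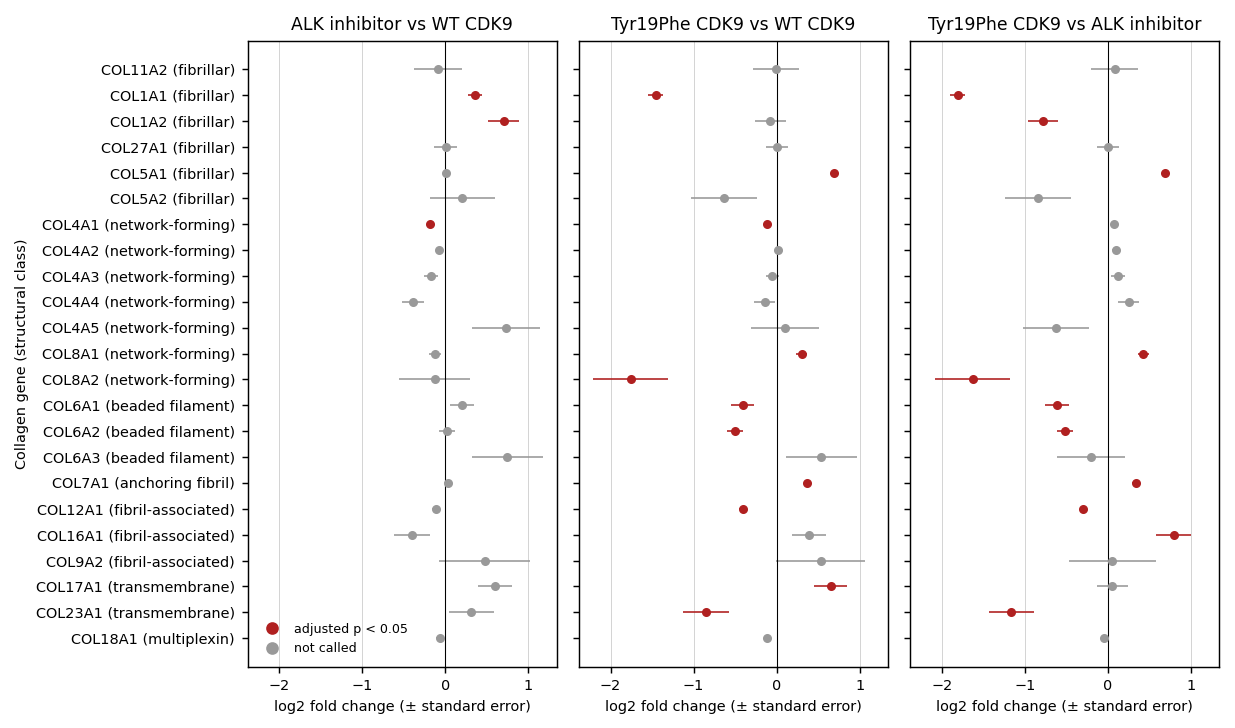
Log2 fold changes of the 23 tested collagen genes with standard errors (bars) in the 3 comparisons, red where the adjusted p was under 0.05. The 3 calls of the inhibitor comparison sit within 1 log2 unit of 0, and COL1A1 and COL8A2 lie furthest below 0 in Tyr19Phe CDK9 cells.

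Tyr19Phe CDK9 cells differed from WT CDK9 cells in 11 of the 23 tested collagen genes. COL5A1, COL7A1, COL8A1 and COL17A1 were higher, and COL1A1, COL4A1, COL6A1, COL6A2, COL8A2, COL12A1 and COL23A1 were lower, with calls in the fibrillar, network-forming, anchoring fibril, fibril-associated, beaded filament and transmembrane families. Over all tested genes 10.4% were called lower and 7.61% higher, against 30.4% and 17.4% of the tested collagen genes, again a description only. The median log2 fold change of the collagen genes was -0.05 and that of all tested genes 0.00, while the median size of change was 0.39 against 0.18 (log2). Both directions were represented, and families were split, with COL8A1 higher and COL8A2 lower, COL5A1 higher and COL1A1 lower, and COL17A1 higher and COL23A1 lower.

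COL5A1 (ENSG00000130635, chr9:134641774-134844843), the main chain of type V collagen, which starts and limits the width of collagen fibrils, rose. It stood at 751, 765 and 734 CPM in the WT CDK9 libraries and at 1242, 1231 and 1157 CPM in Tyr19Phe CDK9 cells, means of 749.8 ± 15.3 and 1209.8 ± 46.2 CPM (SD, n = 3). The groups did not overlap, and the fit gave a log2 fold change of 0.69 (SE 0.03, adjusted p = 5.31e-16), which held in all 15 alternatives. Its partner chain COL5A2 was low, at 2.05, 1.69 and 2.83 CPM in the WT CDK9 libraries and 1.15, 1.42 and 1.66 CPM. Its Tyr19Phe CDK9 libraries all lay lower, but the test missed the threshold (log2 fold change -0.63, SE 0.40, adjusted p = 0.313). The third chain, COL5A3, had at most 6 counts in any library.

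COL1A1 moved the other way and fell with the smallest p of the collagen genes lower in these cells. The Tyr19Phe CDK9 libraries held 45.1, 38.3 and 30.4 CPM against 103, 103 and 107 CPM in WT CDK9 cells, means of 37.9 ± 7.35 and 104 ± 2.37 CPM (SD, n = 3). The groups lay far apart, with a log2 fold change of -1.46 (SE 0.09, adjusted p = 1.04e-13). COL1A2, at 6.47, 4.88 and 7.13 CPM, overlapped the WT CDK9 libraries at 6.05, 7.39 and 6.04 CPM (log2 fold change -0.08, SE 0.19, adjusted p = 0.844).

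COL12A1 (ENSG00000111799, chr6:75084326-75206051), a long fibril-associated collagen of matrix under tension, fell from 758, 737 and 785 CPM in the WT CDK9 libraries to 605, 575 and 534 CPM. Its groups did not overlap (log2 fold change -0.41, SE 0.04, adjusted p = 3.06e-09). COL7A1 (ENSG00000114270, chr3:48564073-48595267), the anchoring fibril collagen that tethers the epidermal basement membrane, rose from 272, 241 and 261 to 317, 343 and 340.3 CPM (log2 fold change 0.37, SE 0.05, adjusted p = 2.8e-07). Those groups did not overlap either. COL18A1, by contrast, was at 813, 898 and 805 CPM in the WT CDK9 libraries and at 759.9, 829 and 736 CPM. These ranges overlapped and the test missed the threshold (log2 fold change -0.11, SE 0.04, adjusted p = 0.0572). It shares 18.5% of its exonic bases with SLC19A1 on the other strand, so if the counting did not use strand, which is not given in the sources used here, reads of the 2 genes cannot be told apart.

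Type VI collagen, which forms beaded microfilaments around cells, was lower in Tyr19Phe CDK9 cells in 2 of its 3 tested chains. COL6A2 (ENSG00000142173, chr21:46098097-46132849) was at 48.9, 48.8 and 51.1 CPM in the WT CDK9 libraries and 38.9, 38.1 and 28.3 CPM, without overlap (log2 fold change -0.50, SE 0.10, adjusted p = 3.02e-04). COL6A1 (ENSG00000142156, chr21:45981737-46005050) was at 13.2, 14.7 and 14.8 CPM in the WT CDK9 libraries and 9.72, 10.6 and 11.7 CPM, also without overlap (log2 fold change -0.41, SE 0.14, adjusted p = 0.0388), but the call was lost in 9 of 15 alternatives. It was lost without WT replicate 1, WT replicate 2, WT replicate 3, Tyr19Phe replicate 1 or Tyr19Phe replicate 2 (adjusted p between 0.0532 and 0.151), at an adjusted p under 0.01, with scaling by library totals (adjusted p = 0.0533), with no filter (0.0639) and with libraries thinned to the smallest total (0.0744). COL6A3, the third chain of the usual trimer, was low at 1.64, 0.792 and 1.60 CPM in the WT CDK9 libraries and 1.96, 2.03 and 1.89 CPM (log2 fold change 0.54, adjusted p = 0.443), and COL6A5 had no count.

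Type VIII collagen, a short-chain network collagen of vessel walls and Descemet's membrane, was split by chain. COL8A1 (ENSG00000144810, chr3:99638475-99799226) was at 72.2, 76.4 and 78.8 CPM in the WT CDK9 libraries and 95.0, 90.7 and 94.4 CPM in Tyr19Phe CDK9 cells, all above the WT CDK9 libraries (log2 fold change 0.30, SE 0.07, adjusted p = 0.00115). COL8A2 (ENSG00000171812, chr1:36095236-36125220) was low, at 53, 44 and 39 counts in the WT CDK9 libraries and 18, 30 and 11 counts in the deeper Tyr19Phe CDK9 libraries. In CPM these were 2.72, 2.32 and 2.08 against 0.610, 1.07 and 0.415, without overlap (log2 fold change -1.76, SE 0.45, adjusted p = 0.00517).

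The remaining calls were smaller or rested on low counts. COL4A1 was at 1183, 1163 and 1106 CPM in Tyr19Phe CDK9 cells, all below the WT CDK9 libraries at 1219.8, 1279.6 and 1231 CPM (log2 fold change -0.11, SE 0.03, adjusted p = 0.0168), and lost its call without WT replicate 2 or Tyr19Phe replicate 3 (adjusted p between 0.0975 and 0.167) and with scaling by library totals. COL4A2 was at 1209, 1235 and 1138 CPM (log2 fold change 0.02, SE 0.04, adjusted p = 0.843). COL17A1 (ENSG00000065618, chr10:104031286-104085957) was at 4.0, 5.96 and 5.77 CPM in the WT CDK9 libraries and 6.40, 9.89 and 8.45 CPM, all above the WT CDK9 libraries (log2 fold change 0.65, SE 0.20, adjusted p = 0.0176), and was not called without WT replicate 1 or Tyr19Phe replicate 2 (adjusted p between 0.134 and 0.135). COL23A1 (ENSG00000050767, chr5:178237618-178590555), a transmembrane collagen, was at 3.44, 4.17 and 4.92 CPM in the WT CDK9 libraries and 1.66, 2.21 and 3.09 CPM, all below the WT CDK9 libraries (log2 fold change -0.85, SE 0.28, adjusted p = 0.029), and was not called without WT replicate 2, WT replicate 3, Tyr19Phe replicate 1 or Tyr19Phe replicate 2 (adjusted p between 0.0568 and 0.139) or in a fit of only the compared groups (adjusted p = 0.0502).

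**Figure D3:**
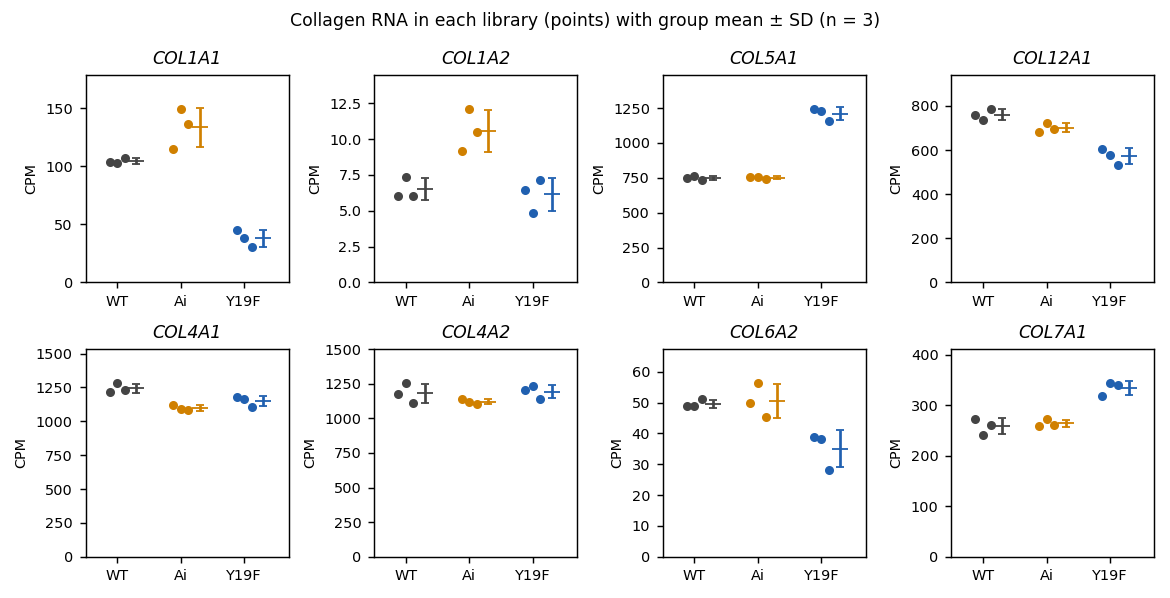
CPM of 8 named collagen genes in each library (points) for WT CDK9 (WT), WT CDK9 with the ALK inhibitor (Ai) and Tyr19Phe CDK9 (Y19F), with bars for the group mean ± SD (n = 3). COL5A1 and COL7A1 are above the WT CDK9 libraries in all 3 Tyr19Phe CDK9 libraries, COL12A1 and COL1A1 below them, and COL4A1 is lower in all 3 inhibitor libraries.

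Set directly against the ALK inhibitor libraries, Tyr19Phe CDK9 cells differed in 11 collagen genes. COL1A1, COL1A2, COL6A1, COL6A2, COL8A2, COL12A1 and COL23A1 were lower, and COL5A1, COL7A1, COL8A1 and COL16A1 were higher, or 30.4% and 17.4% of the tested collagen genes against 11.1% and 9.57% of all tested genes. COL1A1 had a log2 fold change of -1.81 (SE 0.09, adjusted p = 2.94e-16), so its differences from WT CDK9 cells in the 2 other comparisons, which share the WT CDK9 libraries, differed from each other. COL5A1 was 1242, 1231 and 1157 CPM in Tyr19Phe CDK9 cells and 753, 759 and 741 CPM after the inhibitor (log2 fold change 0.69, SE 0.03, adjusted p = 2.94e-16). COL1A2, not called between Tyr19Phe and WT CDK9 cells, was lower here (log2 fold change -0.78, SE 0.18, adjusted p = 0.00198). COL16A1, a fibril-associated collagen, was at 6.47, 7.54 and 7.05 CPM in Tyr19Phe CDK9 cells and 3.80, 4.67 and 3.72 CPM after the inhibitor, with WT CDK9 libraries at 5.44, 6.33 and 4.33 CPM, which overlapped the inhibitor libraries (log2 fold change 0.79, SE 0.21, adjusted p = 0.00636). COL8A2 was lower (log2 fold change -1.63, SE 0.46, adjusted p = 0.00877), a call lost without inhibitor replicate 2 (adjusted p = 0.054). COL8A1 (0.43), COL7A1 (0.34), COL12A1 (-0.29), COL6A1 (-0.61), COL6A2 (-0.52) and COL23A1 (-1.16) were called here (log2 fold changes), and the calls held in all 15 alternatives, with an adjusted p of at most 0.0177 (COL23A1). Of the 23 tested genes, 10 were called in no comparison (COL11A2, COL27A1, COL4A2, COL4A3, COL4A4, COL4A5, COL5A2, COL6A3, COL9A2 and COL18A1). COL27A1, a fibrillar collagen of cartilage, was at 16.5 ± 2.21, 16.5 ± 2.48 and 16.5 ± 0.360 CPM (SD, n = 3) in the 3 groups. COL4A1 did not pass in the direct comparison (log2 fold change 0.07, SE 0.03, adjusted p = 0.161).

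Levels per kilobase of chains of the same trimer were set against each other library by library, as a description with no test. Type I trimers hold more alpha-1 than alpha-2 chains, and COL1A1 exceeded COL1A2 in every library, by 19.4, 15.8 and 20.1 times in the WT CDK9 libraries, 14.3, 14.0 and 14.7 after the inhibitor and 7.93, 8.92 and 4.85 in Tyr19Phe CDK9 cells. The 3 groups did not overlap. COL4A1 was 1.38 ± 0.0588, 1.28 ± 0.00748 and 1.26 ± 0.026 times COL4A2 in the 3 groups (mean ± SD, n = 3), and COL4A3 2.39 ± 0.471, 2.80 ± 0.531 and 2.53 ± 0.541 times COL4A4. COL6A1 was 0.289 ± 0.0157, 0.326 ± 0.0245 and 0.317 ± 0.0878 times COL6A2, and COL6A3 0.0261, 0.0373 and 0.0503 times COL6A1. COL5A1 exceeded COL5A2 by 239 ± 64.6, 225 ± 103 and 586 ± 127 times.

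Genes near each collagen gene on its chromosome were used as a background for regional change. The median log2 fold change of tested genes whose start lies within 5 Mb was 0.21 around COL5A1 in Tyr19Phe CDK9 cells, over 127 genes, where COL5A1 itself was 0.69, a difference of 0.48. Around COL17A1 it was 0.11, against 0.65 for the gene. Around COL6A1 and COL12A1 it was -0.11 and -0.10, against -0.41 and -0.41. COL1A1 (-1.46, median -0.01), COL8A2 (-1.76, median 0.01), COL23A1 (-0.85, median 0.04), COL7A1 (0.37, median 0.01) and COL8A1 (0.30, median -0.06) lay where the neighbours' medians were between -0.06 and 0.04. Around COL4A1, at -0.11, the neighbours were at -0.05.

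**Figure D4:**
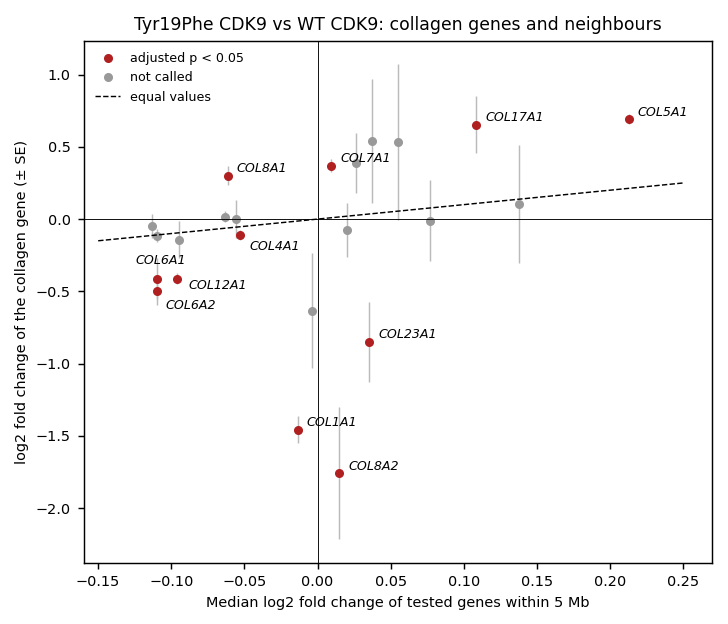
Each tested collagen gene's log2 fold change with its standard error (vertical axis) against the median log2 fold change of tested genes within 5 Mb (horizontal axis) in Tyr19Phe against WT CDK9 cells, red where called. COL5A1 stands at the right with the largest neighbour median, and COL1A1 and COL8A2 at the bottom with neighbours near 0.

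Genes that make, export, process, bind and degrade collagen were described from a list of 75 genes, of which 69 passed the filter. The list was chosen with earlier results of these data known, so its shares of called genes are a description only. In the inhibitor comparison 7 were called higher and 1 lower, 10.1% and 1.45% of the tested list against 1.82% and 2.73% of all tested genes, and the median log2 fold change was 0.09 against 0.00. They were, with log2 fold change and adjusted p, PLOD1 (0.20, 0.00184) and PLOD2 (0.25, 0.022), which hydroxylate lysines for crosslinks, TGM2 (0.53, 1.5e-05), which crosslinks matrix proteins, the collagen-degrading proteinases MMP1 (0.62, 4.75e-06) and MMP2 (0.41, 2.83e-04), MRC2 (0.25, 7.52e-04), which takes up cleaved collagen, ITGB1 (0.13, 0.00528), the beta chain of collagen-binding integrins, and LOXL4 (-0.90, 2.54e-04), a lysyl oxidase, lower. PLOD2 was lost without WT replicate 1, WT replicate 2 or inhibitor replicate 2 (adjusted p between 0.0891 and 0.195). None of the 10 prolyl hydroxylation genes was called, where 1.82% and 2.73% of all tested genes were. The same held for the tested genes of folding chaperones (5), secretion (9), propeptide cleavage (8) and transcription factors (12). LOXL4 held 12.7, 13.0 and 9.57 CPM in the WT CDK9 libraries and 5.13, 7.19 and 6.61 CPM after the inhibitor, without overlap.

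In Tyr19Phe CDK9 cells 12 of the 69 were called higher and 7 lower, 17.4% and 10.1% against 7.61% and 10.4% of all tested genes, with a median of 0.09. Crosslinking genes were split, with LOXL2 (0.28, 2.63e-06) and LOXL4 (0.86, 4.28e-05) higher and LOXL1 (-0.46, 2.16e-06) and PXDN (-0.38, 5.31e-06) lower. LOXL4 was at 21.0, 20.2 and 23.1 CPM, above the WT CDK9 libraries, and so lay on opposite sides of them in the 2 comparisons (direct log2 fold change 1.77, adjusted p = 2.05e-10). MMP2, gelatinase A, was at 81.5, 80.6 and 87.2 CPM against 39.9, 42.4 and 45.3 CPM in the WT CDK9 libraries (log2 fold change 0.97, adjusted p = 5.96e-12), and MMP1 at 0.50 (4.47e-05). Of the genes listed for collagen modification and processing, COLGALT1 (0.28, 5.85e-06), CRTAP (0.15, 0.0131), ADAMTS2 (1.34, 0.00627) and TLL2 (0.73, 0.0179) were higher, ADAMTS2 being a proteinase that trims procollagen. SEC24D (-0.20, 0.0376), a coat protein for secretory vesicles, and the chaperone FKBP9 (-0.14, 0.0326) were lower. The collagen-binding integrin chains ITGB1 (0.21, 1.39e-06) and ITGA1 (-0.39, 0.00698) moved apart.

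Among 12 transcription factors that act on collagen genes, CREB3L1 was far lower and FLI1 higher. CREB3L1, a membrane-bound factor that activates type I collagen, was at 4.0, 4.27 and 5.24 CPM in the WT CDK9 libraries, 4.13, 3.73 and 4.91 CPM after the inhibitor and 0.305, 0.214 and 0.717 CPM in Tyr19Phe CDK9 cells (log2 fold change -3.45, SE 0.39, adjusted p = 3.66e-08). The Tyr19Phe CDK9 libraries lay below all others. FLI1, a repressor of type I genes, was at 3.64, 2.01 and 2.83 CPM, 3.61, 2.25 and 3.46 CPM and 7.45, 8.29 and 8.68 CPM in the same order (log2 fold change 1.52, SE 0.24, adjusted p = 2.04e-05). RUNX2 (0.22, 0.0339) was higher and CREB3L2 (-0.20, 0.0381) lower. The CREB3L2 call was lost in 8 of 15 alternatives (adjusted p at most 0.253). Of the 12, 2 were called lower (16.7%) and 2 higher (16.7%), against 10.4% and 7.61% of all tested genes. SP1, SMAD3, SMAD4, SOX9, TWIST1, CIITA, RFX1 and RFX5 were not called. Whether any of these factors bears on COL1A1 or COL1A2 was not tested. COL1A2, the other type I gene, was not called in Tyr19Phe against WT CDK9 cells (log2 fold change -0.08, adjusted p = 0.844). Single removals ended the calls on CRTAP, FKBP9, SEC24D and RUNX2 without WT replicate 1, FKBP9, SEC24D and RUNX2 without WT replicate 2 and FKBP9, SEC24D, TLL2 and ITGA1 without WT replicate 3. They also ended those on RUNX2 without Tyr19Phe replicate 1, FKBP9, SEC24D and RUNX2 without Tyr19Phe replicate 2 and FKBP9, SEC24D, TLL2 and ITGA1 without Tyr19Phe replicate 3, with adjusted p between 0.0626 and 0.171 over these removals. Scaling by library totals also ended the calls on FKBP9 (adjusted p = 0.0848) and SEC24D (0.0779), and thinning to the smallest total those on SEC24D (0.0506) and RUNX2 (0.0693).

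**Figure D5:**
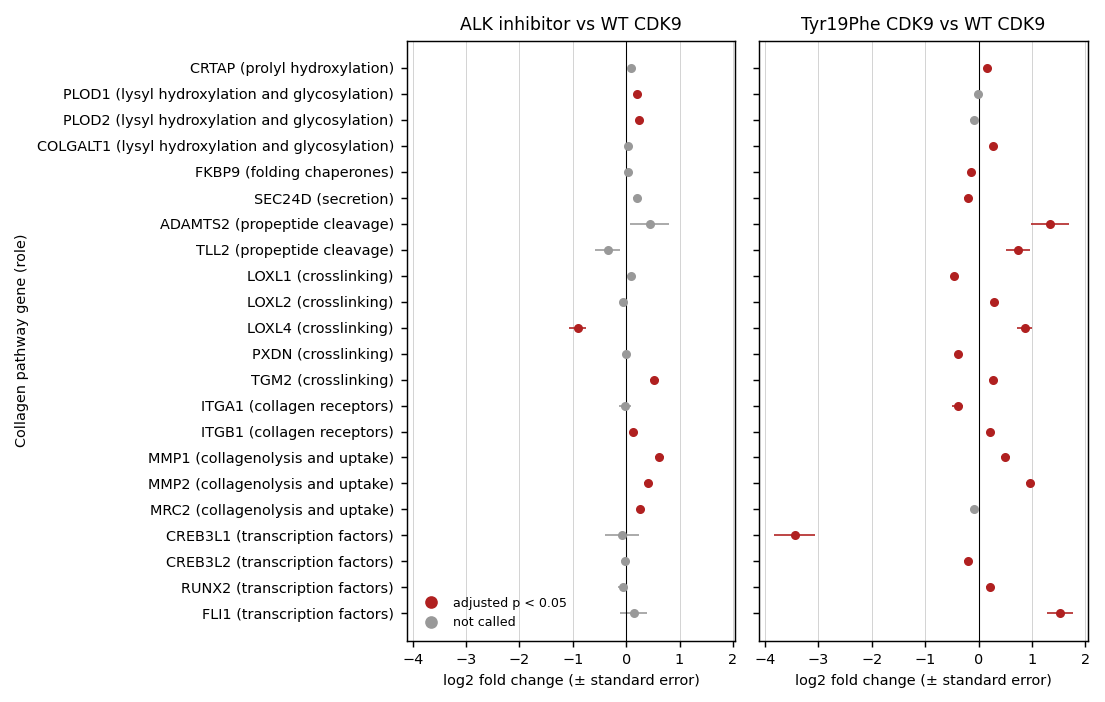
Log2 fold changes with standard errors of the 22 collagen pathway genes called in either comparison with WT CDK9 cells, with their role, red where called. CREB3L1 lies furthest from 0, in Tyr19Phe CDK9 cells, and LOXL4 lies on opposite sides of 0 in the 2 panels.

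Directly between Tyr19Phe CDK9 cells and the inhibitor libraries, 25 of the 69 pathway genes were called, 15 lower and 10 higher (21.7% and 14.5%, against 11.1% and 9.57% of all tested genes). The smallest adjusted p in the secretion, lysine and propeptide roles belonged to SEC24D (-0.40, 3.76e-05), COLGALT1 (0.24, 3.56e-05), PLOD1 (-0.21, 1.75e-04), PLOD2 (-0.34, 2.16e-04), TLL2 (1.08, 5.94e-04) and PCOLCE2 (-0.59, 0.0082). LOXL1 (-0.54, 8.14e-08) and LOXL2 (0.33, 1.24e-07) differed with LOXL4 among crosslinking genes, MMP2 (0.55, 3.61e-07) and MRC2 (-0.34, 2.46e-06) among collagenolysis and uptake genes, and CREB3L1 (-3.37, 4.81e-08), FLI1 (1.38, 5.97e-05) and RUNX2 (0.29, 0.00428) among transcription factors. The remaining named genes were P3H4 (-0.24, 0.0418), SAR1A (0.15, 0.028), TRAPPC2 (0.29, 0.0498), ADAMTS14 (-0.61, 0.0147), ITGA1 (-0.37, 0.0103), ITGB1 (0.08, 0.0343) and FKBP9 (-0.18, 0.0049). Single removals ended the calls on SAR1A, TRAPPC2 and ITGB1 without inhibitor replicate 1, P3H4, FKBP9, SAR1A, TRAPPC2, ITGA1 and ITGB1 without inhibitor replicate 2 and P3H4, TRAPPC2, ADAMTS14 and ITGB1 without inhibitor replicate 3. They also ended those on P3H4, SAR1A, TRAPPC2 and ITGB1 without Tyr19Phe replicate 1, P3H4, TRAPPC2 and ITGA1 without Tyr19Phe replicate 2 and SAR1A, TRAPPC2, ADAMTS14, ITGA1 and ITGB1 without Tyr19Phe replicate 3, with adjusted p between 0.0523 and 0.214 over these removals. TRAPPC2 was called in only 3 of 15 alternatives and was also lost with both other scalings, no filter, thinning and DESeq2 (adjusted p between 0.0502 and 0.0726), and P3H4 (0.0544) and ITGB1 (0.0597) were lost with no filter.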

How the data were processed

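Total RNA of SKOV3 cells was sequenced in 3 groups of 3 libraries, which were grouped and numbered by the deposited labels. The submitters' processing notes name CASAVA, HISAT2 2.0.5, featureCounts 1.5.0-p3 and GRCh38, and the paper names DESeq2 for its ranked lists. The annotation release and the use of strand are not given in the sources used here. The authors deposited whole-number read counts per gene without normalization, beside each gene's identifier, biotype, position and length, and positions in the text are those of that table.

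Counts were fitted in R 4.3.3 with edgeR 4.0.16 (limma 3.58.1). Genes passed filterByExpr (minimum count 10, minimum total 15), which left 16350, libraries were scaled by TMM, and a quasi-likelihood model with a mean for each of the 3 groups was fitted to all 9 libraries (6 residual degrees of freedom). The model moderates each gene's spread with that of all tested genes, so p-values do not rest on these 6 degrees of freedom alone. Standard errors were derived from the test, as the size of the unshrunk log2 fold change divided by the square root of F. P-values were two-sided, the Benjamini-Hochberg adjustment ran over every tested gene, and a gene was called at an adjusted p under 0.05. With 3 libraries against 3, an exact permutation test of a single value cannot go below p = 0.1, so none was used. CPM values were TMM-scaled, and levels per kilobase used the listed gene length. Floors of 3 counts cover counting error only. No library pair held identical values.

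The collagen genes, families, marker lists and the list of 75 pathway genes were chosen with earlier results of these data known. Named were collagen genes called in any comparison, the 5 with the highest level per kilobase and their partner chains, and up to 3 pathway genes per role with the smallest adjusted p in each comparison. LOXL4 in the Tyr19Phe comparison and COL27A1 lie outside this rule and were chosen after their values were seen. The same holds for CREB3L2 and the transcription factors named as not called. Exon overlaps came from GENCODE release 44 and upstream sequences from RefSeq's promoter table for GRCh38.p14. Alternatives were scaling by DESeq2 size factors or library totals, DESeq2 1.42.0, no filter, at least 10 counts in every library, thinning to the smallest total, only the compared groups, a replicate block, an adjusted p under 0.01 and each library left out. The fit was tested on simulated counts. Figures were drawn in Python 3.11.15 with pandas 2.3.3 and matplotlib 3.10.9.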

Additional observations from a re-analysis of the deposited data

Results flagged for a closer look

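COL1A1, the alpha-1 chain of type I collagen, responded differently in the 2 comparisons with WT CDK9 cells. On the log2 scale it changed by 0.35 after the ALK inhibitor and by -1.46 in Tyr19Phe CDK9 cells, and the direct contrast of these groups in edgeR's quasi-likelihood model gave -1.81 (SE 0.09, adjusted p = 2.94e-16). All 3 inhibitor libraries lay above the WT CDK9 libraries and all 3 Tyr19Phe CDK9 libraries below them.

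COL25A1, a transmembrane collagen that did not pass the filter and was in no test, reached 21 counts in 1 ALK inhibitor library (21, 0 and 9 counts) and 14 counts in 1 Tyr19Phe CDK9 library (14, 2 and 5 counts), against 4, 2 and 0 counts in the WT CDK9 libraries. The highest counts stood above the WT CDK9 libraries, but the lowest of each group overlapped them, and the difference was not tested.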

How the results depend on the processing

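No collagen or pathway call changed direction under any alternative. Without the filter, 2 collagen genes were called lower with the ALK inhibitor (COL4A1 and COL4A4) in place of 1. At an adjusted p under 0.01, 0 collagen genes were called higher with the inhibitor in place of 2, 4 were lower in Tyr19Phe CDK9 cells in place of 7 (COL1A1, COL6A2, COL8A2 and COL12A1), and 12 of 19 and 16 of 25 pathway genes were called in the Tyr19Phe comparisons with WT CDK9 cells and with the inhibitor. DESeq2 called 1 collagen gene higher with the inhibitor (COL1A2). Leaving out 1 library at a time gave 0 to 2 collagen genes higher and 1 to 2 lower with the inhibitor (0 higher without WT replicate 1, inhibitor replicate 2 or inhibitor replicate 3, 1 higher and 2 lower without WT replicate 3), and 4 to 6 lower in Tyr19Phe CDK9 cells (4 without WT replicate 2). Libraries of the same number did not pair (correlations -0.012 to 0.026), and a replicate block gave 8 genes lower in place of 7 in Tyr19Phe CDK9 cells and 5 higher in place of 4 in the direct comparison, with other counts as before. Subtracting the median of neighbouring genes left COL5A1 at 0.48, COL8A1 at 0.36, COL6A1 at -0.30, COL12A1 at -0.32 and COL4A1 at -0.06 on the log2 scale in Tyr19Phe CDK9 cells. The causes of these differences were not tested. At these depths 21 collagen genes did not pass the filter, and low expression and limited depth were not told apart. Ratios of COL4A5 to COL4A6 and of COL9A2 to COL9A3 could not be computed because a partner was at or near 0, and the ratio of COL4A3 to COL4A4 was added after the data had been seen.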
